A study of Mus musculus with 6 samples.

Results

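Expression of 10 genes of the NF-kB system was followed in 3T3-L1 cells given chronic intermittent hypoxia (CIH). They encode 4 subunits of the transcription factor (Nfkb1, Nfkb2, Rela and Relb), 2 inhibitors (Nfkbia and Nfkbie) and 4 feedback or target genes (Tnfaip3, Tnfaip2, Birc3 and Icam1). The 10 were found by symbol, and each matched 1 Ensembl gene ID present in all 6 files, out of 21769 such IDs. Of these IDs, 10976 averaged at least 1 FPKM (fragments per kilobase of exon, scaled to the fragments of the library) over the 6 libraries and were tested. Of the 10 genes, 9 were among them, and Icam1 was not.

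NF-kB is a family of dimers that wait in the cytoplasm, held by inhibitor proteins (IkB). Receptors for tumour necrosis factor, interleukin-1 or microbial products activate IkB kinases, the IkB proteins are marked and degraded, and the freed dimers enter the nucleus. The canonical route uses RelA with p50, the product of Nfkb1. The noncanonical route processes the Nfkb2 product p100 to p52, which pairs with RelB. Several of the genes switched on encode inhibitors of the same pathway, so that their messenger RNA is widely used as a readout of its activity. In fat cells the pathway is best known for its part in inflammatory chemokine and cytokine production.

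The comparison set 3 libraries of wild-type 3T3-L1 cells given CIH (repeated spells of low oxygen) against 3 control libraries of the same cells. 3T3-L1 is a mouse fibroblast line that can be turned into adipocytes, and all 6 libraries, labelled adipocytes, come from cells treated with insulin for differentiation and maintenance. The sources used here state neither the oxygen levels nor the length of the cycles. Separate cultures are not named in the labels, and the p-values below therefore reflect only how far these libraries spread, which may be technical.

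Replicates 1 and 2 of both groups were deposited as gene tables, and replicate 3 of both groups as transcript tables whose entries were summed per gene. Log2 values correlated across genes at 0.997 between CIH 1 and CIH 2 and at 0.995 between control 1 and control 2. CIH 3 and control 3, which differ in treatment, correlated at 0.756. Across the kinds of table, CIH 3 correlated with CIH 1 at 0.616 and control 3 with control 1 at 0.802. CIH 1 and 2 were therefore compared with control 1 and 2 by limma, and CIH 3 with control 3 without a test, since it is 1 library against 1. Levels should be read within a kind of table only. The steps of the gene tables correspond to 25700000 to 28000000 fragments per library, while the depth of the transcript tables is unknown. All 7 markers of white adipocytes were above 0 in every library, and their summed level was 6028 and 5272 FPKM in CIH 1 and 2 and 6317 and 6963 FPKM in control 1 and 2, but 476 FPKM in CIH 3 against 25571 FPKM in control 3. Of 5 preadipocyte markers it was 60.9 and 56.1 FPKM in CIH 1 and 2 and 70.9 and 68.6 FPKM in control 1 and 2, but 546 FPKM in CIH 3 against 50.3 FPKM in control 3. Single markers also differed in replicates 1 and 2. Of 6 tested adipocyte markers, 2 were called lower in CIH: Cfd, which encodes adipsin (-3.47, limma adjusted p = 0.000746), and Pparg, the main regulator of fat cell differentiation (-0.91, limma adjusted p = 0.00383). Of 4 tested preadipocyte markers, Thy1 (1.32) and Dlk1 (0.68) were called higher and Pdgfra (-0.31) and Ly6a (-0.52) lower, the Pdgfra call being lost without any 1 of the 4 libraries (limma adjusted p = 0.0753 to 0.169). The results below stand beside these marker differences, whose part in them was not tested. In bulk RNA, fewer cells of a type and less RNA per cell cannot be told apart. The macrophage markers Adgre1 and Tyrobp were listed at 0 in all 6 libraries, and Ptprc reached at most 0.00199 FPKM. The summed level of 8 macrophage markers was 7.72 to 12.5 FPKM in CIH libraries and 6.36 to 9.29 FPKM in control libraries, most of it Cd14 and Cd68. Single markers went both ways between CIH 3 and control 3. Cd14 (8.39 against 1.40 FPKM), Lyz2 (2.64 against 0.285) and Csf1r (0.481 against 0.0564) were higher in CIH 3. Cd68 (0.978 against 4.56 FPKM) and Itgam (0 against 0.0531) were lower there.

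In replicates 1 and 2, Relb, Nfkbie and Tnfaip2 rose with CIH and Nfkb1 fell, while Rela, Nfkb2, Nfkbia, Tnfaip3 and Birc3 were not called. Counted over the 9 tested genes, 3 were called higher where 18.2% of all tested genes were, and 1 was called lower where 20.9% were (limma, adjusted p under 0.05). Together that is 4 of 9 beside a background of 39.1%, which is no result about these genes. Nfkbie entered both comparisons only because CIH 3 lifted its mean over the 6 libraries to 1 FPKM or more, so the counts that include it are descriptions. In the replicate 3 pair, 5 of the 10 genes were at least 2-fold higher in CIH 3, where 21.8% of tested genes were, and 0 were at least 2-fold lower, where 11.8% were. The 5 were Nfkb1, Nfkb2, Relb, Nfkbie and Birc3. Relb met both criteria upward, as 5.81% of tested genes did, and so did Nfkbie, for which the CIH 3 criterion is partly built into the filter. Nfkb1 was called lower in replicates 1 and 2 but reached 2-fold higher in CIH 3, as 3.64% of tested genes did. Of the 9, 0 were called lower and were also lower in CIH 3, where 9.86% of tested genes were. With no filter on low values all 4 calls were lost, at limma adjusted p-values of 0.0591 to 0.118. Folds are on the log2(FPKM + 1) scale, which understates the change of low genes.

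**Figure D1:**
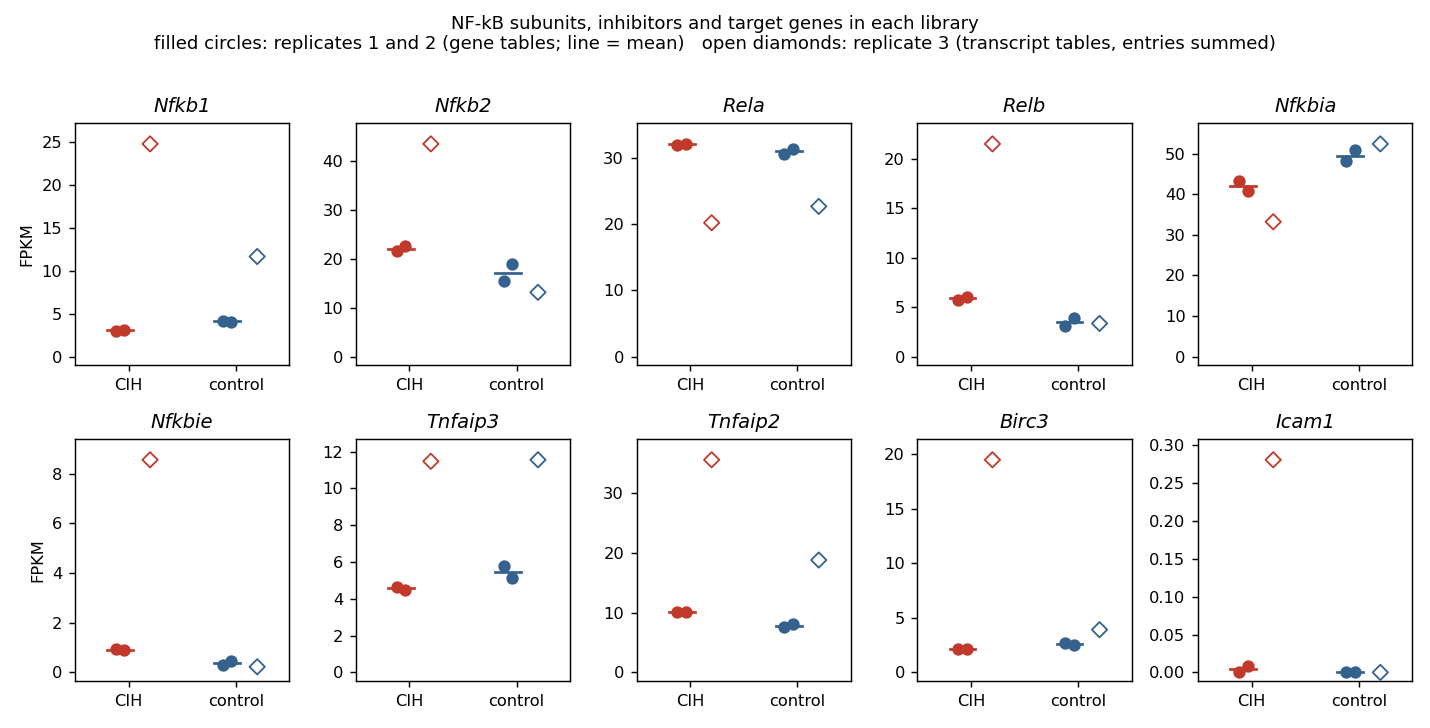
FPKM of each of the 10 genes (vertical axis, linear, a scale of its own per gene) in CIH and control libraries. Filled circles are replicates 1 and 2 with their mean as a line, open diamonds are replicate 3, whose transcript tables are on another scale. Nfkb2, Relb, Nfkbie and Tnfaip2 lie higher in CIH than in control within both kinds of table, and Nfkbia lies lower. The share of all tested genes that do so was not counted, so this is a description only.

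Relb encodes the subunit that pairs with p52 in the noncanonical route (ENSMUSG00000002983, chromosome 7, 19606217 to 19629438, GRCm38). It had 5.74 and 6.02 FPKM in CIH 1 and 2, against 3.05 and 3.94 FPKM in control 1 and 2. CIH 3 had 21.5 FPKM, against 3.35 FPKM in control 3. CIH lay above control within each kind of table, with no overlap in replicates 1 and 2. Relb rose by 0.62 on the log2 scale in replicates 1 and 2 (SE 0.12, limma adjusted p = 0.0163), and the difference in the replicate 3 pair was 2.37, larger than in 95.3% of tested genes. Without CIH 1 or without CIH 2 the adjusted p of limma was 0.0707 and 0.0754, with changes of 0.65 and 0.59.

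Nfkb2 encodes p100, the precursor of p52 and itself an inhibitor of RelB dimers (ENSMUSG00000025225, chromosome 19, 46304320 to 46312385). It had 21.5 and 22.5 FPKM in CIH 1 and 2, against 15.4 and 18.9 FPKM in control 1 and 2. The replicate 3 pair had 43.4 FPKM in CIH 3, against 13.1 FPKM in control 3. The groups did not overlap in either kind of table, but control 1 and control 2 differed from each other by more than CIH 1 did from control 2. The change in replicates 1 and 2 was 0.35 (SE 0.11), with a 95% interval of 0.06 to 0.63, and was not called (limma adjusted p = 0.0604). The estimate turned on the controls: it was 0.49 without control 2 (limma adjusted p = 0.0187) and 0.21 without control 1 (0.158). Without CIH 1 or CIH 2 the adjusted p of limma was 0.16 and 0.198. In the replicate 3 pair the difference was 1.65. Exons of Nfkb2 overlap those of Psd on the opposite strand. Psd had 3.65 and 4.15 FPKM in CIH 1 and 2 and 3.16 and 3.35 FPKM in control 1 and 2, and although the libraries were made with a directional kit, the strand setting of the counting was not stated.

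Nfkb1 encodes p105, the precursor of p50 (ENSMUSG00000028163, chromosome 3, 135584655 to 135691547), and went opposite ways in the 2 kinds of table. It had 3.02 and 3.14 FPKM in CIH 1 and 2, against 4.19 and 4.01 FPKM in control 1 and 2. CIH 3 had 24.8 FPKM, against 11.7 FPKM in control 3. Both CIH gene tables were below both controls, and CIH 3 was above control 3. Nfkb1 fell by 0.32 on the log2 scale in replicates 1 and 2 (SE 0.08, limma adjusted p = 0.0286), and the replicate 3 pair differed by 1.03. Leaving out any 1 of the 4 libraries ended the call, with limma adjusted p-values of 0.0573 to 0.146.

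Rela encodes the subunit with the transactivation domain used by the canonical route (ENSMUSG00000024927, chromosome 19, 5637483 to 5648130). It had 32.0 and 32.1 FPKM in CIH 1 and 2, against 30.6 and 31.4 FPKM in control 1 and 2. CIH 3 had 20.2 FPKM, against 22.7 FPKM in control 3. These were the closest levels of any subunit: the change was 0.05 in replicates 1 and 2 (95% interval -0.11 to 0.21, limma adjusted p = 0.57) and -0.16 in the replicate 3 pair. Scaling by library totals turned the sign of the first to -0.07, and the second ran from -0.44 to 0.44 over the scalings tried.

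Because both values come from 1 library, the ratio of 2 genes does not depend on how that library was scaled. The level of Relb relative to Rela was 0.179 and 0.187 in CIH 1 and 2, against 0.0998 and 0.125 in control 1 and 2. It was 1.06 in CIH 3, against 0.148 in control 3, so Relb came level with Rela in that library. The level of Nfkb2 relative to Nfkb1 was 7.10 and 7.16 in CIH 1 and 2, against 3.67 and 4.70 in control 1 and 2, and 1.75 in CIH 3 against 1.12 in control 3. Both ratios, the noncanonical gene over its canonical counterpart, were higher in CIH in each kind of table. In replicates 1 and 2 Nfkb1 was called lower, while Nfkb2 was not called. The ratios were formed after the levels had been seen and were not tested.

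Of the inhibitors, Nfkbia was not called, and Nfkbie was called higher but entered the test only through its level in CIH 3. Nfkbia encodes IkB-alpha, the fast feedback inhibitor that NF-kB itself switches on (ENSMUSG00000021025, chromosome 12, 55489410 to 55492647). It had 43.2 and 40.9 FPKM in CIH 1 and 2, against 48.1 and 50.9 FPKM in control 1 and 2. CIH 3 had 33.2 FPKM, against 52.4 FPKM in control 3. CIH lay below control within each kind of table. The change in replicates 1 and 2 was -0.23 (SE 0.07), with a 95% interval of -0.41 to -0.05, and was not called (limma adjusted p = 0.0565). In the replicate 3 pair the difference was -0.64, and over the scalings of that pair it ran from -0.93 to -0.03.

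Nfkbie encodes IkB-epsilon, an inhibitor that acts with a delay (ENSMUSG00000023947, chromosome 17, 45555703 to 45563169). It had 0.929 and 0.910 FPKM in CIH 1 and 2, against 0.306 and 0.446 FPKM in control 1 and 2. CIH 3 had 8.56 FPKM, against 0.226 FPKM in control 3. These are low levels, 74 and 76 fragments in CIH 1 and 2 and 24 and 38 fragments in control 1 and 2. The 95% exact Poisson intervals, which cover counting error only, were 58.1 to 92.9 and 59.9 to 95.1 fragments in CIH, against 15.4 to 35.7 and 26.9 to 52.2 fragments in control, and do not overlap. Nfkbie rose by 0.48 on the log2(FPKM + 1) scale (SE 0.06, limma adjusted p = 0.00603), and its mean FPKM in CIH 1 and 2 was 2.44 times that in control 1 and 2. The replicate 3 pair differed by 2.96 on the log2 scale, more than 97.8% of tested genes. Nfkbie averaged 0.648 FPKM over the 4 gene tables and passed the filter on low values only through CIH 3. With the filter applied to the 4 fitted libraries it was not tested. The level of Nfkbie relative to Nfkbia was 0.0215 and 0.0222 in CIH 1 and 2, against 0.00637 and 0.00877 in control 1 and 2, and 0.258 in CIH 3 against 0.00432 in control 3. Nfkbia thus stayed the more abundant inhibitor per length in every library.

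The promoters of both inhibitors are printed because each carries a match to the kB consensus, the sequence bound by NF-kB dimers. The 250 bases before each start site are from RefSeq (GRCm38.p6), at chr12:55492648-55492897 on the minus strand for Nfkbia and chr17:45555450-45555699 on the plus strand for Nfkbie. Neither window overlaps an annotated exon. Capitals mark the match.
Nfkbia: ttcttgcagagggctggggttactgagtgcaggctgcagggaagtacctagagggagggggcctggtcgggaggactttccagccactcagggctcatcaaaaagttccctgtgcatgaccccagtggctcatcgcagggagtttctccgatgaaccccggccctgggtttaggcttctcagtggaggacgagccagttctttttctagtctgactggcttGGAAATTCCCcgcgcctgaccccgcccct
Nfkbie: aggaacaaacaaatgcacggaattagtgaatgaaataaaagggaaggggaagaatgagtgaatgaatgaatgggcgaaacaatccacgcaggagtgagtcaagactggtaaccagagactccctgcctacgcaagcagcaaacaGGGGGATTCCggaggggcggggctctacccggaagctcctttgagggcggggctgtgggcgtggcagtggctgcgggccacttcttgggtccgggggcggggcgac
The Nfkbia match lies 29 to 20 bases before the start and reads GGGAATTTCC on the other strand. The Nfkbie match lies 106 to 97 bases before the start and reads GGGGGATTCC on the gene strand.

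Of the 10 genes, 8 had an entry in the promoter table, and Nfkb1 and Relb did not. Both strands of the 250 bases before each of their 11 start sites were searched for the kB consensus. It was taken as GGGRNNYYCC, where R is A or G, Y is C or T and N is any base. It matched in 5 of the 8 genes: Nfkb2, Nfkbia, Nfkbie, Tnfaip3 and Tnfaip2. It matched nowhere in the windows of Rela, Birc3 and Icam1. Counted by window, 7 of the 11 held a match, and of all 32851 promoter windows of that length 7.25% did. The genes were chosen as members or targets of the NF-kB system, so this comparison cannot test for an excess of matches. The windows are also not independent, since Nfkb2 supplied 3 of the 11, and its windows 2 and 3 share bases. The share of all genes with a match was not counted. Nfkb2 had matches before each of its 3 start sites: GGGAATTCCC, which overlaps GGGGAATTCC on the other strand, and GGGGCTTTCC before the first, GGGACATTCC before the second and GGGACTTTCC before the third. Tnfaip3 had GGGACACCCC and GGGGATTTCC before its first start site and none before its second. The genes with a match included Tnfaip2, which was called higher in replicates 1 and 2, and Nfkb2, Nfkbia and Tnfaip3, which were not called. They also included Nfkbie, called higher but tested only through its level in CIH 3.

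Tnfaip3 encodes A20, a ubiquitin-editing enzyme that shuts the pathway off and is itself an NF-kB target (ENSMUSG00000019850, chromosome 10, 19000910 to 19015657). It had 4.66 and 4.49 FPKM in CIH 1 and 2, against 5.79 and 5.13 FPKM in control 1 and 2. CIH 3 had 11.5 FPKM, against 11.6 FPKM in control 3. The change was -0.21 in replicates 1 and 2 (95% interval -0.44 to 0.02, limma adjusted p = 0.122) and -0.01 in the replicate 3 pair, whose sign varied with the scaling (-0.28 to 0.57). No increase of A20 messenger RNA with CIH was seen in either kind of table as deposited.

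Tnfaip2 encodes a tumour necrosis factor-inducible protein (ENSMUSG00000021281, chromosome 12, 111442469 to 111455018). It had 10.2 and 10.1 FPKM in CIH 1 and 2, against 7.57 and 8.05 FPKM in control 1 and 2. CIH 3 had 35.6 FPKM, against 18.8 FPKM in control 3. CIH lay above control within each kind of table, and Tnfaip2 rose by 0.34 in replicates 1 and 2 (SE 0.08, limma adjusted p = 0.0248). The replicate 3 pair differed by 0.89, short of 2-fold. The call was lost when CIH 1, CIH 2 or control 1 was left out (limma adjusted p = 0.126, 0.106 and 0.0835) and when libraries were scaled by totals (0.23, limma adjusted p = 0.0826).

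Birc3 encodes cIAP2, a ubiquitin ligase of the tumour necrosis factor receptor complex (ENSMUSG00000032000, chromosome 9, 7848699 to 7873186). It had 2.11 and 2.18 FPKM in CIH 1 and 2, against 2.68 and 2.54 FPKM in control 1 and 2. CIH 3 had 19.5 FPKM, against 3.91 FPKM in control 3. As with Nfkb1, the gene tables were lower in CIH and CIH 3 was higher than control 3. The change was -0.20 in replicates 1 and 2 (SE 0.07, limma adjusted p = 0.0786) and 2.06 in the replicate 3 pair. Birc3 is a close paralog of Birc2, so fragments of either may be shared.

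Icam1 encodes the adhesion molecule that binds leukocyte integrins, a standard NF-kB target of endothelial cells (ENSMUSG00000037405, chromosome 9, 21015985 to 21028817). It was close to silent: 1 fragment was recovered in CIH 2 (0.00836 FPKM) and 0 fragments in CIH 1, control 1 and control 2. A count of 0 allows up to 3 fragments, which is 0.0263 FPKM in CIH 1, 0.0268 FPKM in control 1 and 0.0246 FPKM in control 2. Icam1 had 0.281 FPKM in CIH 3 and was listed at 0 in control 3. No change of Icam1 could be detected at this depth in the gene tables. The endothelial markers Pecam1, Cdh5, Kdr, Tek and Vwf summed to 0.168 to 1.02 FPKM in CIH libraries and 0.338 to 0.538 FPKM in control libraries.

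**Figure D2:**
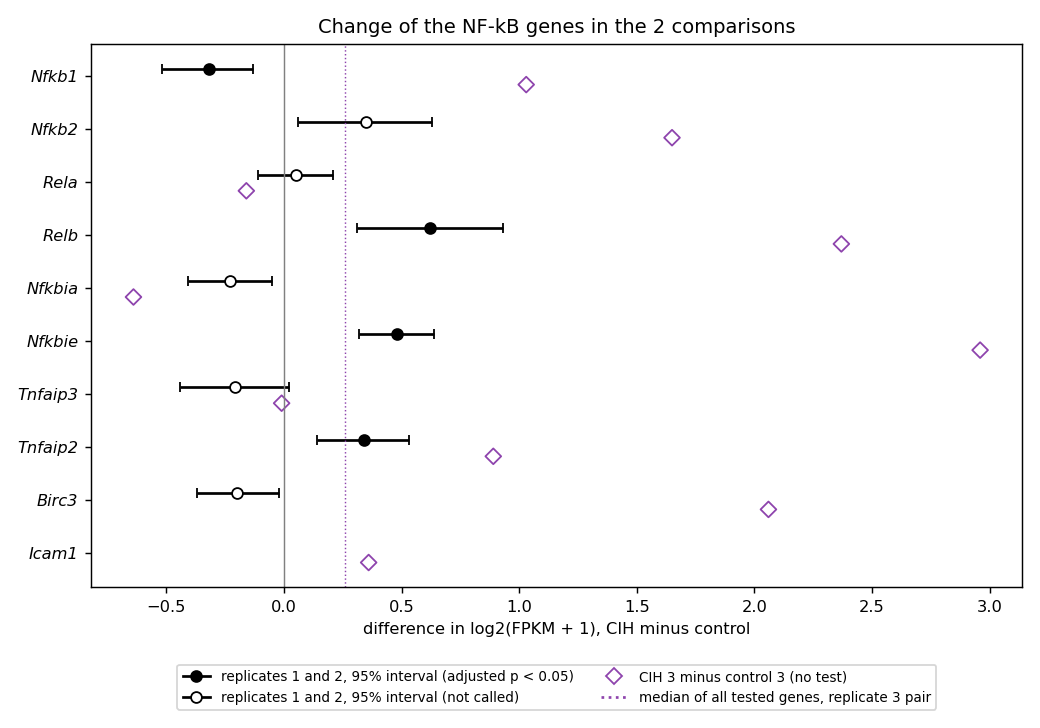
Difference in log2(FPKM + 1), CIH minus control, for the 10 genes. Circles with 95% intervals are the limma estimates for replicates 1 and 2, filled where called, and open diamonds are CIH 3 minus control 3. Relb, Nfkb2, Nfkbie and Tnfaip2 are to the right of 0 in both, and Nfkb1, Birc3 and Rela change sides. Shares of all tested genes on the same side in both were not counted. The dotted line at 0.26 is the median of all tested genes in the replicate 3 pair.

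A limma fit of all 6 libraries that included the kind of table as a term called 0 of the 9 genes, with 3 at an unadjusted p under 0.05 (Nfkb2, Relb and Tnfaip2) and adjusted p-values of 0.191 to 0.93. That fit called 0.574% of all tested genes, and 2052 of the 10976 were at an unadjusted p under 0.05. The group-only fit of all 6 libraries called 0 of the 9 and 0 of 10976 genes, with 0 of the 9 and 490 of all at an unadjusted p under 0.05. Over all tested genes the median difference was -0.01 for the gene tables and 0.26 for the transcript tables. Scaling by totals made these -0.10 and 0.84, and the median of ratios set both to 0.00. Relb, Nfkb2, Nfkbie and Birc3 stayed at least 2-fold higher in CIH 3 under every scaling tried, and Nfkb1 ran from 0.75 to 1.62. Of all 10976 tested genes, 1789 were as much higher with the median of ratios and 4645 with scaling by totals. Nfkbie was among the tested genes only through its level in CIH 3.

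Ordered by level, Nfkbia led in both groups of gene tables, followed by Rela, Nfkb2 and Tnfaip2. Below these the order differed. In CIH 1 and 2 Relb (5.88 ± 0.202 FPKM; SD, n = 2) stood above Tnfaip3 (4.57 ± 0.118), Nfkb1 (3.08 ± 0.084) and Birc3 (2.15 ± 0.0485). In control 1 and 2 Tnfaip3 (5.46 ± 0.47 FPKM; SD, n = 2) and Nfkb1 (4.10 ± 0.126) stood above Relb (3.49 ± 0.626) and Birc3 (2.61 ± 0.0971). Libraries of neighbouring genes did not overlap in either order, though Nfkb1 and Relb of the controls came within their spread of each other. In CIH 3 Nfkb2 and Tnfaip2 stood above Nfkbia, while in control 3 Nfkbia was the highest and Rela the next.

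The transcript tables hold several entries for some of these genes, so the replicate 3 pair also shows whether a difference sat in 1 entry. The entries carry no transcript names. The 2 larger Nfkb1 entries were 13.3 and 11.3 FPKM in CIH 3, against 5.79 and 4.76 FPKM in control 3, and the smallest was 0.265 against 1.11 FPKM. For Nfkb2 the entries were 18.8 and 24.6 FPKM in CIH 3, against 3.71 and 9.39 FPKM in control 3. Both entries of Nfkb2 were higher in CIH 3, and the smaller one took 43.3% of the gene in CIH 3 and 28.4% in control 3. Relb had 1 entry of 17.2 FPKM in CIH 3, against 3.35 FPKM in control 3, and its other 2 entries, 0.444 and 3.87 FPKM in CIH 3, were listed at 0 in control 3. All 4 Birc3 entries were higher in CIH 3, the largest with 11.5 FPKM against 3.20 FPKM in control 3 and another with 4.97 against 0.257 FPKM. Each Tnfaip3 entry was close between the libraries, the largest with 6.01 FPKM in CIH 3 and 5.64 FPKM in control 3. How fragments were divided among entries was not stated, and with 1 library per group these shares have no replicate check.

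**Figure D3:**
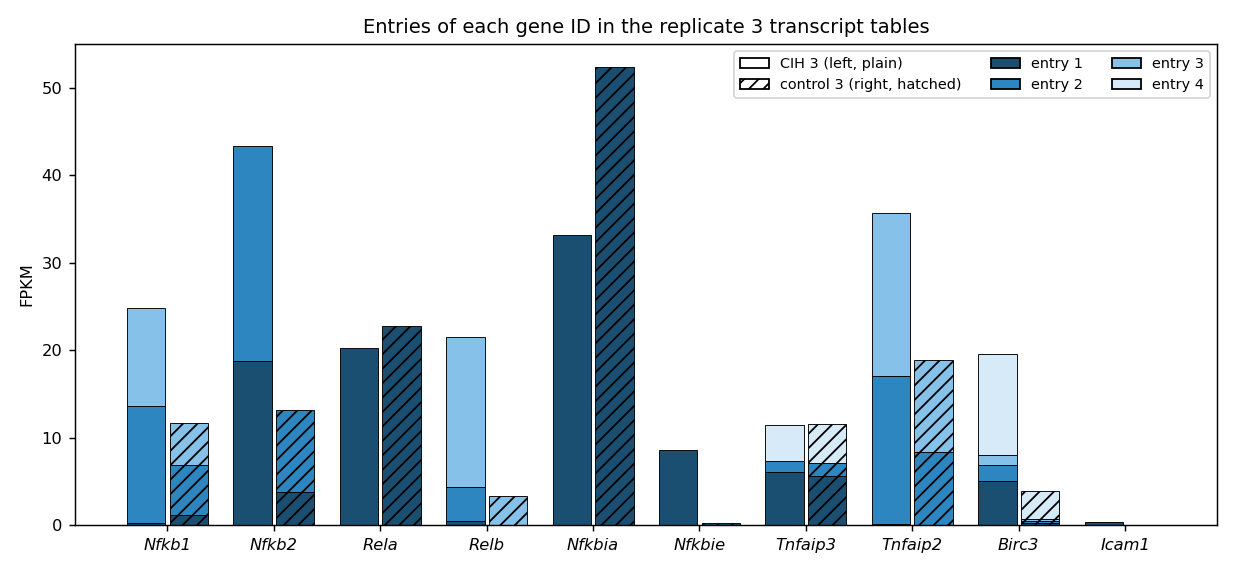
FPKM of each gene in CIH 3 (left, plain bars) and control 3 (right, hatched bars), split into the entries the transcript tables list for its gene ID. Both Nfkb2 entries and all 4 Birc3 entries are higher in CIH 3, and the Tnfaip3 bars are nearly equal.

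The rest of the pathway was read from lists by role. Of 5 further Rel and inhibitor genes, 3 were tested in replicates 1 and 2, with 1 higher, 1 lower and 1 not called, beside 18.2% higher and 20.9% lower over all tested genes. Nfkbiz, a nuclear IkB protein that helps switch on secondary response genes, rose to 7.03 and 7.87 FPKM in CIH 1 and 2, against 5.57 and 5.94 FPKM in control 1 and 2 (0.32, limma adjusted p = 0.0443). It was 6.50 FPKM in CIH 3, against 17.4 FPKM in control 3. Bcl3, a nuclear IkB protein that binds p50 and p52 dimers, fell to 2.97 and 3.05 FPKM in CIH 1 and 2, against 4.05 and 5.05 FPKM in control 1 and 2 (-0.46, limma adjusted p = 0.0294). It was 9.80 FPKM in CIH 3, against 1.87 FPKM in control 3. The Nfkbiz call was lost without any 1 of the 4 libraries (limma adjusted p = 0.069 to 0.195) and with scaling by totals (0.22, limma adjusted p = 0.166). The Bcl3 call was lost without CIH 1, CIH 2 or control 2 (limma adjusted p = 0.129, 0.102 and 0.0612). Both went opposite ways in the 2 kinds of table, as Nfkb1 did, a difference that was not tested.

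The list of kinases holds 11 genes, all tested, and includes Ikbkg, Tab1, Tab2 and Tab3, which are partners of kinases and not kinases themselves. Its median was -0.15 beside -0.01 for all tested genes. By limma 0 were called higher (0 also at an unadjusted p under 0.05), 4 lower and 7 not called, beside 18.2% higher and 20.9% lower over all. The 4 were Ikbkg, the scaffold of the IkB kinase complex, Tab2 and Tab3, which link the kinase TAK1 to ubiquitin chains, and Ripk1, the receptor-interacting kinase (-0.32, limma adjusted p = 0.0348). Tab3 fell to 4.26 and 4.24 FPKM in CIH 1 and 2, against 7.76 and 6.45 FPKM in control 1 and 2 (-0.62, limma adjusted p = 0.0116), and was 7.01 FPKM in CIH 3 against 12.8 FPKM in control 3. Ikbkg and Tab2 fell by 0.46 and 0.43 (limma adjusted p = 0.0105 and 0.0289), and in the replicate 3 pair their differences were 0.04 and 0.17. Without CIH 1 all of these 4 calls were lost, and likewise without CIH 2 (limma adjusted p = 0.0511 to 0.147). Those of Tab2 and Ripk1 did not pass without control 1 either. Ikbke, which was not called, passed the filter on low values only through replicate 3. The median of this list was 0.17 in the replicate 3 pair, beside 0.26 for all tested genes.

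Of 19 adaptor and ubiquitin genes, 18 were tested, with 1 higher, 4 lower and 13 not called (median -0.07), near the 20.9% lower over all tested genes and under the 18.2% higher. Irak2, a kinase-like adaptor of interleukin-1 and Toll-like receptors, fell to 5.10 and 5.16 FPKM in CIH 1 and 2, against 7.54 and 8.19 FPKM in control 1 and 2 (-0.53, limma adjusted p = 0.00902). It was 7.58 FPKM in CIH 3 against 10.6 FPKM in control 3. Rnf31, the catalytic subunit of the linear ubiquitin ligase, and Traf6, the ubiquitin ligase of the same receptors, fell by 0.49 and 0.47 (limma adjusted p = 0.0105 and 0.0121). The fourth was Irak4 (-0.27, limma adjusted p = 0.0467). Sharpin, another subunit of the linear ubiquitin ligase, rose by 0.27 (limma adjusted p = 0.0392). The calls of Sharpin and Irak4 were lost without any 1 of the 4 libraries (limma adjusted p = 0.0709 to 0.167 and 0.0927 to 0.221), and that of Sharpin also with scaling by totals (0.16, limma adjusted p = 0.167). Those of Irak2, Rnf31 and Traf6 were lost without CIH 1 or without CIH 2 (limma adjusted p = 0.0506 to 0.0806). In the replicate 3 pair 17 of the 18 were within 2-fold, where 66.4% of all tested genes were.

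Of 10 receptor genes, 9 were tested, with 2 higher, 2 lower and 5 not called (median 0.06), beside 18.2% higher and 20.9% lower over all tested genes. Tlr2, the receptor for bacterial lipoproteins, rose to 2.18 and 2.56 FPKM in CIH 1 and 2, against 1.46 and 1.29 FPKM in control 1 and 2 (0.50, limma adjusted p = 0.0117), and was 18.5 FPKM in CIH 3 against 0.710 FPKM in control 3. Tnfrsf12a, the receptor for TWEAK and an input of the noncanonical route, rose to 107.8 and 88.8 FPKM in CIH 1 and 2, against 53.6 and 64.1 FPKM in control 1 and 2 (0.73, limma adjusted p = 0.0148). It was 10.7 FPKM in CIH 3 against 27.7 FPKM in control 3. Tnfrsf1b, the second tumour necrosis factor receptor, fell to 3.47 and 3.64 FPKM in CIH 1 and 2, against 5.73 and 6.13 FPKM in control 1 and 2 (-0.60, limma adjusted p = 0.0065). Tlr3, a receptor for double-stranded RNA, was the other gene called lower, with 1.69 and 2.06 FPKM in CIH 1 and 2 and 3.26 and 2.68 FPKM in control 1 and 2 (-0.46, limma adjusted p = 0.0295). It was 12.3 FPKM in CIH 3 against 2.28 FPKM in control 3, so it went the other way there. The Tlr3 call was lost without CIH 1, CIH 2 or control 1, at limma adjusted p-values of up to 0.137, and the Tnfrsf12a call without CIH 1 (0.0617). Of 8 ligand genes only Tnfsf12, which encodes TWEAK, was tested, and it was not called.

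Of 20 further target genes, 15 were tested, with 9 higher, 2 lower and 4 not called, beside 18.2% and 20.9% over all tested genes, and a median of 0.45 beside -0.01. Of the same 15, 11 were at least 2-fold higher in CIH 3 (21.8% of all tested genes) and 2 were lower by as much (11.8%), and their median was 2.08 beside 0.26. Ccl5, Cxcl5, Cxcl10 and Saa3 averaged under 1 FPKM in the 4 gene tables, passed the filter only through replicate 3, and are all among the 11. Over the 11 targets that averaged at least 1 FPKM in the gene tables, 7 were called higher and 2 lower (median 0.53), and in the replicate 3 pair 7 were 2-fold higher or more and 2 lower (median 1.93). Over all genes with that average, 18.4% and 22% were called higher and lower (median -0.02), and 17.8% and 12.7% passed 2-fold upward and downward in the pair (median 0.19). Csf1, the macrophage growth factor, rose to 11.7 and 12.4 FPKM in CIH 1 and 2, against 3.91 and 4.82 FPKM in control 1 and 2 (1.28, limma adjusted p = 0.00229), and was 53.9 FPKM in CIH 3 against 3.95 FPKM in control 3. The chemokine genes Cxcl1, Ccl7 and Ccl2 rose by 1.96, 1.76 and 1.74 (limma adjusted p = 0.00146, 0.000844 and 0.00094). Ptgs2, the inducible cyclooxygenase, rose by 1.08 (limma adjusted p = 0.0013) but was 0.706 FPKM in CIH 3 and 0.776 FPKM in control 3. Ier3, an early response gene, fell to 7.74 and 7.35 FPKM in CIH 1 and 2, against 11.5 and 12.4 FPKM in control 1 and 2 (-0.60, limma adjusted p = 0.00636), and was 10.4 FPKM in CIH 3 against 1.98 FPKM in control 3. Lcn2 was the other gene called lower (-0.55, limma adjusted p = 0.0119). On the log2(FPKM + 1) scale the changes of Cxcl1, Ccl7, Ccl2, Csf1 and Ptgs2 were each larger than that of any of the 9 NF-kB genes. The largest of the 9 in the same libraries was 0.62 for Relb. With a pseudocount of 0.1 it was Nfkbie at 1.11, above Relb at 0.75, and these targets ran from 1.45 for Csf1 to 3.64 for Cxcl1.

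**Figure D4:**
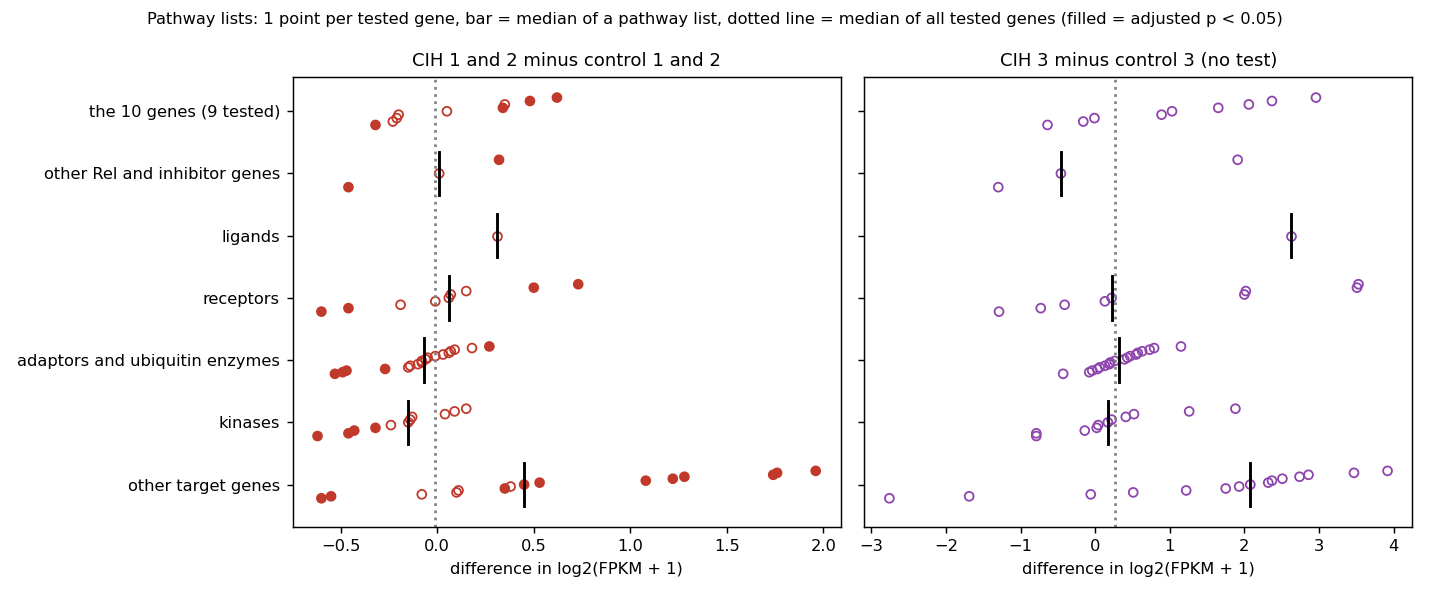
Difference in log2(FPKM + 1) of every tested gene by list, for CIH 1 and 2 minus control 1 and 2 (left, filled where called) and CIH 3 minus control 3 (right). Bars are medians of the pathway lists and dotted lines the medians of all tested genes. The further target genes have a median of 0.45 on the left and 2.08 on the right. The list of kinases and their partners has -0.15 and 0.17.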

How the data were processed

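The deposited values were taken as FPKM, a unit read from the values themselves, since no header names one. GRCm38, featureCounts 1.5.0-p3 and DESeq 1.8.3 are listed without a role, per the submitters' processing notes, and no source used here names the aligner. In the gene tables, FPKM times exon length came in whole steps within 0.05 for 98.4% to 98.6% of genes with few fragments, from which fragments were recovered. Values of the transcript tables were summed per gene ID, and their unit, which was not checked in this way, was assumed to be the same.

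Symbols, exon lengths and coordinates were taken from GENCODE M21, on the GRCm38 build. Genes whose mean reached 1 FPKM across the 6 libraries were fitted as log2(FPKM + 1) in R 4.3.3 with limma 3.58.1, using a trended empirical Bayes step and Benjamini-Hochberg adjustment over all 10976, and the fit was checked on simulated data. A gene was called at an adjusted p under 0.05. CIH 3 and control 3 were set side by side at a 2-fold threshold. Alternatives were the pseudocount, the filter, 3 scalings, the trend, a replicate block, each library left out and fits of all 6 libraries.

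The genes, lists and tests were chosen with earlier results of these data known. Text names all 10 genes, and of each pathway list up to 4 called genes whose CIH 3 lies on the same side of control 3 and up to 2 on the other side, by size of change. Other genes named in the text, cell type markers included, were picked after their values were seen, as was the split of the targets by their mean in the gene tables.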

Additional observations from a re-analysis of the deposited data

Results flagged for a closer look

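Among tested genes whose own values the text gives, 20 lay on one side of control in CIH 1 and CIH 2. In CIH 3 they lay on the other side. Of the 4292 genes called over all tested genes, 1938 differed in the opposite direction in the replicate 3 pair. The rule for named genes picks up to 2 such genes per pathway list, so the 20 are not a rate. The difference between the 2 kinds of table was not tested, since the replicate 3 pair has 1 library per group.

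Among the 10 NF-kB genes these were Nfkb1 (a log2 difference of -0.32 for replicates 1 and 2, and 1.03 for the replicate 3 pair), Birc3 (-0.20 and 2.06) and Rela (0.05 and -0.16). Nfkb1 was called in replicates 1 and 2, and Birc3 and Rela were not.

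Of the wider pathway, Bcl3 (-0.46 and 1.91), Ier3 (-0.60 and 1.93), Tlr3 (-0.46 and 2.02) and Ccl5 (-0.08 and 2.32; not called) were lower in replicates 1 and 2 and over 2-fold higher in CIH 3. The same held for the markers Pdgfra (-0.31 and 3.35), Ly6a (-0.52 and 1.76) and Cd14 (-0.20 and 1.97; not called). Nfkbiz (0.32 and -1.30) and Tnfrsf12a (0.73 and -1.29) did the opposite. For Ikbkg (-0.46 and 0.04), Ripk1 (-0.32 and 0.52), Irak4 (-0.27 and 0.43), Tab2 (-0.43 and 0.17), Tnfrsf1b (-0.60 and 0.22), Rnf31 (-0.49 and 0.73), Traf6 (-0.47 and 0.20) and Ptgs2 (1.08 and -0.06) the replicate 3 pair was within 2-fold.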

How the results depend on the processing

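Leaving out 1 library at a time gave 827 to 1736 genes called higher and 1038 to 1946 called lower, against 1995 and 2297 with all 4, and 1 to 4 of the NF-kB genes higher and 0 lower, against 3 and 1. With no filter on low values, 590 genes were called higher and 806 lower, and 0 of the NF-kB genes in either direction. Limma adjusted p-values were then 0.0721 for Nfkb1, 0.118 for Relb, 0.0702 for Nfkbie and 0.0591 for Tnfaip2. Scaling by totals called 1417 genes higher and 3039 lower, and 2 NF-kB genes higher and 3 lower. Over 13 alternatives each, adjusted p-values ran from 0.00525 to 0.118 for Relb (10 passed), 0.0206 to 0.146 for Nfkb1 (7 passed) and 0.0166 to 0.126 for Tnfaip2 (7 passed). Nfkbie passed the filter on low values only through CIH 3. It was therefore not tested with the filter applied to the 4 fitted libraries, and it did not pass with no filter. Of 18 pathway genes named by the rule, 7 passed under all 13 alternatives (Tnfrsf1b, Cxcl1, Ccl7, Ccl2, Csf1, Ptgs2 and Ier3), 10 lost the call without at least 1 library, and Tlr2 lost it only with no filter (0.105). The 13 include the crossed pairing described below and leave out the fits of all 6 libraries. When all 6 were fitted together and table kind was accounted for, Cxcl1, Ccl7 and Ccl2 passed (limma adjusted p = 0.0489, 0.0307 and 0.0309). In that fit Csf1 (0.131), Ptgs2 (0.299), Tnfrsf1b (0.433) and Ier3 (0.818) did not pass. The group-only fit of all 6, and the one with a replicate block, called 0 genes. The cause of these changes was not tested.

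With a replicate block, limma called 1556 genes higher and 1776 lower, and 2 NF-kB genes higher and 0 lower. The adjusted p was 0.0658 for Nfkb1, 0.0572 for Tnfaip2, 0.0204 for Relb and 0.0113 for Nfkbie, and Nfkbiz (0.0664), Sharpin (0.0856), Tab2 (0.0547), Tlr3 (0.0532), Ripk1 (0.0664), Irak4 (0.0867) and Pdgfra (0.0606) did not pass. Deviations from group means correlated at -0.178 between same-numbered gene tables. Over all 6 libraries, where replicate 3 is another kind of table, they correlated at 0.529 to 0.587, and crossed gene tables at 0.567 and 0.568. With 2 libraries per group, the deviations in a group mirror each other, so the first value cannot decide whether same-numbered samples are paired. The labels give only a number, and the main fit took the samples as unpaired. A crossed pairing, added after seeing the data, called 2140 genes higher and 2370 lower, and 3 NF-kB genes higher and 2 lower.

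Signs turned for Rela when scaled by totals (-0.07). They also turned in all 3 fits of the 6 libraries for Nfkb1 (0.13), Rela (-0.02), Birc3 (0.56), Bcl3 (0.33), Nfkbiz (-0.22), Ier3 (0.24), Tlr3 (0.36), Cd14 (0.52), Pdgfra (0.91), Ly6a (0.24), Ccl5 (0.72) and Il1r1 (0.66), and for Il1r1 with scaling by the median of ratios (0.01) or the upper quartile (0.02). Depth limits Icam1 and Nfkbie in the gene tables.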

Other observations

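Of 8 ligand genes, 7 averaged under 1 FPKM over the 6 libraries. Tnf, the founding ligand, had 0.0700 FPKM in CIH 1 and was listed at 0 in CIH 2, CIH 3 and all 3 controls. Lta, which encodes lymphotoxin alpha, averaged 0.473 ± 0.0733 FPKM in CIH 1 and 2 and 1 ± 0.136 FPKM in control 1 and 2 (SD, n = 2), and 0.396 FPKM in CIH 3 against 0.619 FPKM in control 3, and was not tested. Tnfsf12 had 2.60 and 2.36 FPKM in CIH 1 and 2 and 1.44 and 2.22 FPKM in control 1 and 2, and 31.4 FPKM in CIH 3 against 4.27 FPKM in control 3.

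Il1r1 and Il1rap encode the receptor of interleukin-1 and its partner chain, and were picked here after their values were seen. Il1r1 had 10.2 and 10.4 FPKM in CIH 1 and 2 and 10.5 and 10.4 FPKM in control 1 and 2 (-0.01, limma adjusted p = 0.908), but 48.1 FPKM in CIH 3 against 11.3 FPKM in control 3. Il1rap had 1.57 and 1.75 FPKM in CIH 1 and 2 and 1.43 and 1.38 FPKM in control 1 and 2 (0.15, limma adjusted p = 0.137), but 69.5 FPKM in CIH 3 against 5.09 FPKM in control 3.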
